A study of Mus musculus with 4 samples.

Results

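The genes examined here carry cells from the end of DNA replication through mitosis. They were 47 genes chosen by name for that role, and 45 of them were measured among 17097 named genes. Ccnb1 and Nuf2 had no probe set assigned to them alone and were not analysed. Where a gene had several probe sets, the brightest on average was taken, so that 45 of 84 member probe sets were used. The values were log2 RMA signals, an array summary in which a step of 1 is a 2-fold difference in fluorescence, from 4 Affymetrix arrays of sorted CD4+CD8+ double-positive thymocytes of C57BL/6 mice. The mouse labels were WT for 2 arrays and hCD2-iCre x Gfi1fl/fl for the other 2. hCD2-iCre is a Cre recombinase driven by human CD2 regulatory sequences in lymphoid cells, and Gfi1fl/fl is the floxed gene of the transcriptional repressor Gfi1. No treatment was given, no age was stated, and the WT label does not mention the recombinase. The labels number the samples 1 and 2 within each genotype and do not say whether these came from separate animals. The spread behind each p-value is therefore that of these samples alone and may be technical.

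Most double-positive thymocytes are small resting cells, while those that have just left the double-negative stages are large and still divide. Cyclin A and the B-type cyclins activate CDK1 to start mitosis, and Polo-like and Aurora kinases build the spindle. Checkpoint kinases at the kinetochores hold back the anaphase-promoting complex until chromosomes are attached. Transcripts of these genes accumulate in G2 and mitosis and are low in resting cells, and the DREAM, MuvB-B-MYB and FOXM1 complexes act on their promoters. In a bulk sample, fewer dividing cells and less of each RNA per dividing cell cannot be told apart.

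Mitotic genes did not separate the genotype labels. None of the 45 was called higher and none lower on the arrays labelled as knockout (limma; a gene was called at a Benjamini-Hochberg adjusted p under 0.05, with the adjustment made across 17097 genes), where 0.942% of all genes were called higher and 0.17% lower. Of the 45, 0 had an unadjusted p under 0.05, against 1417 of the 17097 genes. With the replicate number as a block this held for 1 member, Kif23, and again none was called. With calls this rare among all genes, 0 of 45 is close to the background. The lowest adjusted p was 0.964, for Smc4. The median difference, knockout minus wild type, was -0.11 on the log2 scale against -0.02 over all genes, with 6 members above 0 and the whole range from -0.65 (Kif23) to 0.30 (Foxm1). The intervals were wide. Over the members the lower 95% limits had a median of -1.78 and the upper limits a median of 1.43. The limits of 40 members lay beyond a 2-fold difference in both directions. No member had non-overlapping labels, against 34.5% of all genes.

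**Figure D1:**
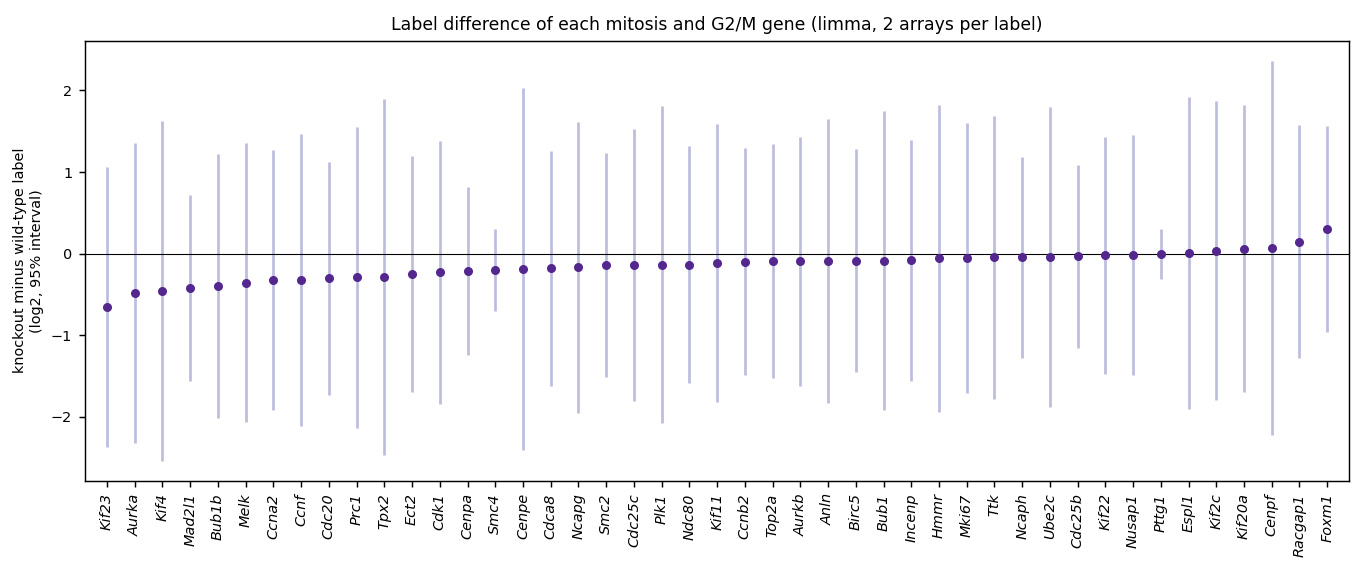
Difference between the labels for each of the 45 genes (points, log2 signal, mean of 2 arrays labelled as knockout minus mean of 2 arrays labelled as wild type) with limma's 95% interval (lines). Every interval crosses 0, and the intervals of Pttg1 and Smc4 are the narrowest.

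The spread lay within the labels instead. Of the 45 genes, 42 had the same order of arrays from low to high: knockout replicate 1, wild-type replicate 1, wild-type replicate 2 and knockout replicate 2. This order was found for 4.53% of all genes. In the same 42 members both wild-type arrays lay between the knockout arrays, with replicate 1 at the bottom and replicate 2 at the top, against 7.86% of all genes. The median member stood at 6.69 on knockout replicate 1, 7.49 and 8.61 on wild-type replicates 1 and 2, and 9.20 on knockout replicate 2. Knockout replicate 1 was the lowest array for 44 members and knockout replicate 2 the highest for 42. Each of these differences sets 1 array against 1, so they are given without a test.

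Between the arrays labelled as knockout, 44 of 45 members were higher on replicate 2 (43.2% of all genes), and 43 were higher by at least 2-fold (1.54% of all genes). The median difference was 2.27, a 4.83-fold ratio of signals, against -0.04 over all genes. Between the wild-type arrays all 45 members were higher on replicate 2 (41.7% of all genes), and 15 by at least 2-fold (0.667% of all genes), with a median of 0.92 against -0.05. The knockout difference was the larger in 43 members, by a median of 1.34. Over the 45 genes the knockout and wild-type differences had a Pearson r of 0.67 and a Spearman rho of 0.57. These are correlations across genes that share the same 4 arrays, and genes are not independent replicates. Over all 17097 genes r was 0.30. Only 78 genes differed at least 4-fold upward between the knockout arrays. Members made up 31 of these (39.7% of the 78, and 31 of the 45), and a further 20 came from a list of other mitotic genes.

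**Figure D2:**
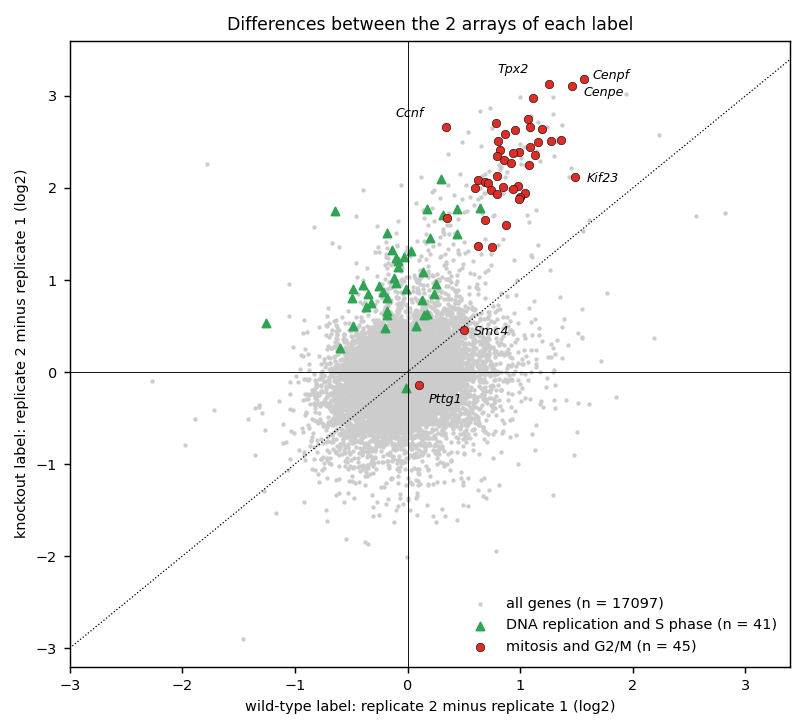
Difference between replicate 2 and replicate 1 (log2 signal) within the wild-type label (x axis) and within the knockout label (y axis) for all 17097 genes (grey), 41 DNA replication and S phase genes (green triangles) and the 45 mitotic genes (red). The dotted line marks equal differences. Mitotic genes lie at the upper right except Pttg1 and Smc4, and 40 of the 41 S phase genes lie above 0 on the y axis, beside 15 on the x axis.

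Because the arrays of 1 label lay on either side of the other label, leaving out a knockout array turned the comparison. Without knockout replicate 1, the remaining knockout array gave a median difference of 0.99, and 4 members were called higher, Birc5, Mki67, Hmmr and Cenpf, where 1.74% of all genes were. Without knockout replicate 2 the median was -1.25, and 25 members were called lower, where 0.831% of all genes were. Birc5, Mki67 and Hmmr were called in both fits, in opposite directions. These fits take their spread from the 2 wild-type arrays alone and assume that the lone knockout array varies like them. Without wild-type replicate 1 the median was -0.60, and without wild-type replicate 2 it was 0.31, with 0 members called in either case, where 0.614% and 0.602% of all genes were called in either direction.

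The cyclins and CDK1 showed this order without exception. Ccna2, the A-type cyclin of S phase and G2, had signals of 9.66 and 10.51 on wild-type replicates 1 and 2 and of 8.61 and 10.91 on knockout replicates 1 and 2. Its label means were 10.08 ± 0.60 (wild type) and 9.76 ± 1.63 (knockout; SD, n = 2 each), a difference of -0.32 ± 0.67 (SE; limma, adjusted p = 1.00). The knockout arrays thus stood below and above both wild-type arrays. Cdk1, the mitotic kinase, had 9.13 and 9.93 on the wild-type arrays and 8.13 and 10.47 on the knockout arrays. Ccnb2, a B-type cyclin, had 8.89 and 9.63 against 8.18 and 10.15. Ccnf, whose product is an F-box protein of G2, had nearly level wild-type arrays (6.09 and 6.43) beside knockout arrays at 4.61 and 7.27, the widest knockout difference of the group at 2.67. The phosphatase genes Cdc25b and Cdc25c, which activate CDK1, differed by 1.36 and 2.25 between the knockout arrays, and that of Cdc25b was among the 3 smallest of all members. Over the 6 measured genes of this group the median difference was 2.28 within the knockout label and 0.77 within the wild-type label.

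Among the regulators of mitotic entry, Plk1, the Polo-like kinase of centrosomes and kinetochores, had 6.43 and 7.51 on the wild-type arrays and 5.46 and 8.21 on the knockout arrays, a 6.72-fold ratio between the knockout arrays. Aurka, the spindle-pole Aurora kinase, had 7.5 and 8.46 against 6.18 and 8.81. Its label difference of -0.49 ± 0.78 (SE) was among the 3 lowest and was not called (limma, adjusted p = 1.00). Melk, a kinase of proliferating cells, ranged from 4.51 to 6.92 over the arrays. Foxm1, the forkhead factor that activates many genes of this group, had 4.32 and 5.19 on the wild-type arrays and 4.25 and 5.86 on the knockout arrays. It had the highest label difference of all members, 0.30 ± 0.53 (SE; limma, adjusted p = 1.00). On the replicate 1 arrays it differed by less than 0.1 between the labels. Another of its probe sets had 4.55 on wild-type replicate 1 and 3.72 on knockout replicate 1, while the rest were close there. The label differences of its other probe sets were 0.03 to 0.45.

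The spindle checkpoint genes behaved alike. Mad2l1, which encodes the MAD2 inhibitor of CDC20, had 9.82 and 10.17 on the wild-type arrays and 8.74 and 10.41 on the knockout arrays. Its wild-type arrays were close (difference 0.35), and knockout replicate 1 stood apart below them. Its label difference was -0.42 ± 0.48 (SE; limma, adjusted p = 0.973). Bub1, a checkpoint kinase, had 7.49 and 8.76 against 6.79 and 9.30, Bub1b, which encodes BUBR1, had 7.99 and 8.91 against 6.92 and 9.19, and Ttk, the MPS1 kinase, had 6.57 and 7.70 against 5.92 and 8.27. The chromosomal passenger complex corrects faulty attachments and directs cytokinesis. By the probe sets taken, its 4 subunit genes moved by nearly the same amount. Between the knockout arrays Aurkb, its kinase, differed by 2.13, Cdca8, which encodes borealin, by 2.09, Birc5, which encodes survivin, by 2.00, and Incenp, the scaffold, by 1.99. Between the wild-type arrays the 4 genes differed by 0.60 to 0.94. Their other probe sets were less alike between the knockout arrays, at 2.48 (Aurkb), 2.35 (Cdca8), and 0.74 and -0.04 (Incenp).

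By the probe sets taken, the kinetochore genes ranged from the widest difference of all members to one of the smallest. Cenpf, a large coiled-coil kinetochore protein, had 7.10 and 8.66 on the wild-type arrays and 6.36 and 9.54 on the knockout arrays. The knockout arrays thus differed 9.08-fold, the largest upward difference among all 17097 genes by the probe set taken for each. Among probe sets not taken, 1 of Hmmr and 1 of Ncapg differed more, 11.1-fold and 10.9-fold. Cenpe, the kinesin that moves chromosomes to the spindle equator, had 7.47 and 8.93 against 6.46 and 9.56, an 8.60-fold ratio between the knockout arrays. Ndc80, a microtubule-binding kinetochore subunit, had 7.49 and 8.18 against 6.67 and 8.73. Cenpa, the centromeric histone H3 variant, differed by only 1.36, with 8.98 and 9.60 against 8.39 and 9.76. Its other, dimmer probe set differed by 1.90 between the knockout arrays and by 1.71 between the wild-type arrays. There wild-type replicate 1 was the lowest array.

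All 10 genes of spindle motors and microtubule proteins differed at least 4-fold between the knockout arrays, by 2.02 (Nusap1) to 3.13 (Tpx2). Tpx2, the spindle assembly factor that activates Aurora A, had 7.35 and 8.61 on the wild-type arrays and 6.13 and 9.26 on the knockout arrays. Kif4, a chromosome-bound kinesin, had 6.09 and 7.21 against 4.71 and 7.68. Nusap1, a microtubule-bundling protein, had 9.06 and 10.04 against 8.53 and 10.54. Kif11, the motor that separates spindle poles, Kif20a and Kif23, kinesins of the central spindle, Kif2c, a microtubule depolymerase, Kif22, a chromosome-arm kinesin, Prc1, a bundler of the central spindle, and Hmmr, a spindle-associated protein, made up the rest. Kif23 was an exception in its order. Its wild-type replicate 2 (6.05) lay above knockout replicate 2 (5.71), with wild-type replicate 1 at 4.56 and knockout replicate 1 at 3.6. It therefore had the lowest label difference of the members, -0.65 ± 0.73 (SE; limma, adjusted p = 0.972). Its other probe set had its highest value on knockout replicate 2 (5.53, beside 4.55 on wild-type replicate 2), so its probe sets disagreed on this order. They disagreed on the label difference too, which was 0.52 for the other probe set and -0.07 for the mean of both. The cytokinesis genes followed the common order. Anln, which encodes anillin of the contractile ring, ranged from 6.43 on knockout replicate 1 to 8.95 on knockout replicate 2. Ect2 and Racgap1, which switch on RhoA at the division site, ranged from 7.19 to 9.20 and from 7.08 to 8.97 between the same arrays.

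**Figure D3:**
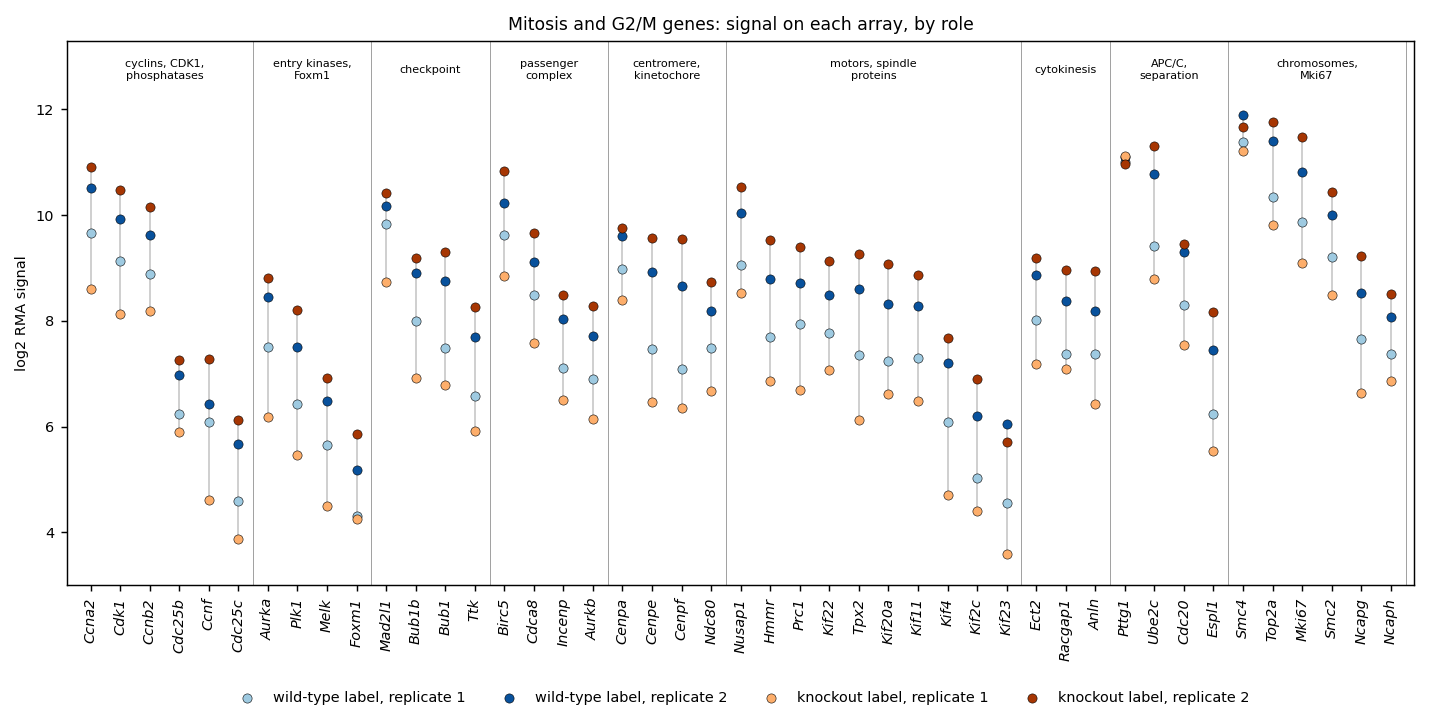
Log2 RMA signal of each of the 45 genes on each of the 4 arrays, grouped by role and sorted by mean signal within a role. Points are single arrays, and grey lines span the lowest to the highest array. Knockout replicate 1 (light orange) is at the bottom and knockout replicate 2 (dark orange) at the top for nearly every gene, with Pttg1, Smc4 and Kif23 as the exceptions.

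The genes of the anaphase-promoting complex and of chromatid separation included the clearest exception. Ube2c, its ubiquitin-conjugating enzyme, had 9.41 and 10.77 on the wild-type arrays and 8.79 and 11.31 on the knockout arrays. Cdc20, its mitotic activator, had 8.31 and 9.30 against 7.55 and 9.46, and Espl1, which encodes separase, had 6.25 and 7.44 against 5.54 and 8.17. Pttg1, which encodes securin, the inhibitor of separase, had 11.003 and 11.11 on the wild-type arrays and 11.11 and 10.98 on the knockout arrays. Its arrays thus lay within a narrow range, and it was the only member lower on knockout replicate 2 (by -0.14). Its label difference of -0.01 ± 0.13 (SE) had 95% limits of -0.32 and 0.30. Of its other probe sets, 1 also had a narrow range (8.15, 8.04, 8.17 and 7.82 on wild-type replicates 1 and 2 and knockout replicates 1 and 2), while another was 0.59 higher on knockout replicate 2.

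Among the chromosome structure genes, Mki67, which encodes the proliferation antigen Ki-67, had 9.88 and 10.81 on the wild-type arrays and 9.10 and 11.48 on the knockout arrays. Top2a, the topoisomerase that untangles sister chromatids, had 10.35 and 11.40 against 9.81 and 11.76. The condensin genes did not move equally. Ncapg and Ncaph, subunits of condensin I alone, differed by 2.58 and 1.65 between the knockout arrays, and Smc2, an ATPase of both condensins, by 1.93. Its partner Smc4 differed by only 0.45, with 11.39 and 11.90 on the wild-type arrays and 11.21 and 11.67 on the knockout arrays. Both other probe sets of Smc4 gave the same order and differences of 0.42 and 0.58.

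Other probe sets of the same genes mostly had the same direction but fewer of them reached 2-fold (43 of 45 of those chosen did). Of 39 further probe sets for 26 members, 36 were higher on knockout replicate 2, 23 of them by at least 2-fold, and 36 on wild-type replicate 2, and 27 followed the common order of arrays. On all 4 arrays, 6 of them lay below the median of the named probe sets, which was 3.77 to 3.81 depending on the array.

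The wider cell cycle programme followed only in part. Of 71 measured mitotic genes outside the 45, none was called in either direction between the labels (limma; 2 at an unadjusted p under 0.05), and 55 were at least 2-fold higher on knockout replicate 2, with a median of 1.67, beside 12 on wild-type replicate 2, with a median of 0.51. The common order held for 53. The largest label differences were -1.07 for Mad1l1, a partner of MAD2 (limma, adjusted p = 0.145), and -0.54 for Cenph, a kinetochore gene (limma, adjusted p = 0.949). Mad1l1 was lower on replicate 2 of both labels, with 5.22 and 5.02 on the wild-type arrays and 4.29 and 3.80 on the knockout arrays. Core subunits of the anaphase-promoting complex, with subunits and regulators of cohesin, differed little. Of 17 measured, none was at least 2-fold higher on replicate 2 of either label, and the medians were 0.29 and 0.23. The labels gave 0 calls in limma (1 at an unadjusted p under 0.05), the largest label differences being 0.78 for Anapc11, the RING subunit (limma, adjusted p = 0.409), and -0.40 for Pds5b, a cohesin regulator (limma, adjusted p = 0.842).

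DNA replication and S phase genes differed between the knockout arrays but not in 1 direction between the wild-type arrays. Of 41 measured, 40 were higher on knockout replicate 2, 17 of them by at least 2-fold, and the median was 0.93. Between the wild-type arrays 15 were higher on replicate 2 and none by 2-fold, with a median of -0.10. Pole, the leading-strand polymerase gene, had the largest knockout difference of the list at 2.10, beside 0.29 within the wild-type label, and Gins2, a helicase subunit gene, had 0.54 and -1.26 (both picked after their values were seen). Between the labels 0 of the 41 passed the threshold (limma; 0 at an unadjusted p under 0.05 as well). The largest label differences were 0.79 for Ccne1, cyclin E1, and -0.74 for Tk1, thymidine kinase (limma, adjusted p = 0.607 and 0.769). Whether the mitotic and S phase lists differ in this respect was not tested. Of 17 measured inhibitors of the cell cycle and genes of quiescence, only Klf2, a factor of resting T cells, was called. It rose by 5.20 ± 0.24 (SE; limma, adjusted p = 0.000301), while its arrays within a label differed by 0.31 at most. None of the 17 was at least 2-fold apart between the replicates of a label.

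**Figure D4:**
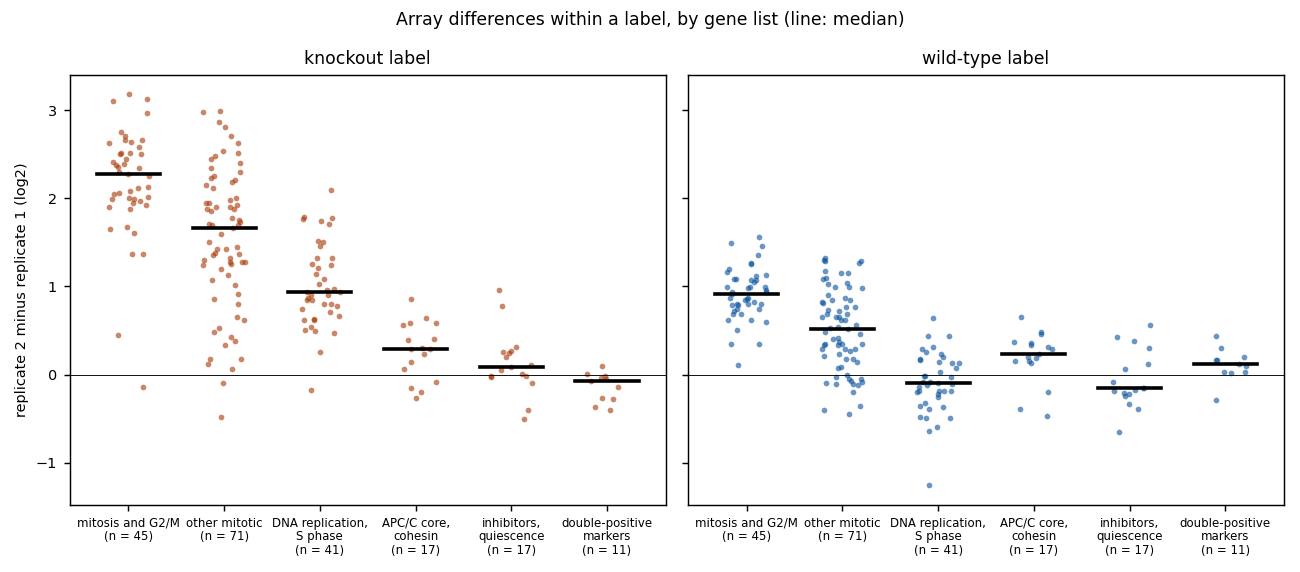
Difference between replicate 2 and replicate 1 (log2 signal) within the knockout label (left) and the wild-type label (right) for 6 gene lists. Points are genes and lines are medians. The medians of the mitotic genes are 2.27 and 0.92, those of the S phase genes 0.93 and -0.10, and those of the other 3 lists to the right lie between -0.15 and 0.29.

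Markers of the labelled cell type were present on all arrays. Of 14 listed double-positive markers, 11 were measured and all lay above the median of the named probe sets on each array. Cd8a, the CD8 alpha chain, had 12.48 and 12.78 on the wild-type arrays and 12.61 and 12.56 on the knockout arrays, and Rag1, the recombinase, 12.54 and 12.66 against 12.54 and 12.55. Of the 11, 10 had a label difference below 0 (9464 of the 17097 genes did), with a median of -0.17 against -0.02 over all genes. On knockout replicate 2, 2 of the 11 were higher (43.2% of all genes), and on wild-type replicate 2, 10 were (41.7% of all genes). The summed signal of the 11 was 33334 and 37603 on the wild-type arrays and 32224 and 30782 on the knockout arrays. Dntt, terminal deoxynucleotidyl transferase, was the only one called, lower by -0.69 ± 0.11 (SE; limma, adjusted p = 0.0413). Of 12 markers of earlier, cycling thymocytes none was called (limma; 3 at an unadjusted p under 0.05). They differed by medians of 0.33 and -0.26 between the replicates of the knockout and wild-type labels. Ptcra, the pre-T cell receptor chain, was lower on replicate 2 of both labels, by -0.69 and -0.71. Dtx1, a Notch target, had 5.88 and 5.05 against 5.69 and 7.27, and Tfrc, the transferrin receptor of growing cells, had 8.73 and 8.65 against 9.64 and 10.07 (label difference 1.17; limma, adjusted p = 0.0563). The part of these cells in the mitotic differences was not tested.

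Of 40 listed markers of B, myeloid, gamma-delta and innate lymphoid, erythroid and stromal cells, 36 were measured, and 28 of these lay below the median of the named probe sets on every array; none was called (limma; 5 at an unadjusted p under 0.05). Their summed signal was 1481 and 2140 on wild-type replicates 1 and 2 and 1607 and 2198 on knockout replicates 1 and 2. Bright genes weigh most in such a sum. The median difference was -0.03 between the knockout arrays and -0.12 between the wild-type arrays. Of the 36, 16 were higher on knockout replicate 2 and 5 on wild-type replicate 2. The haemoglobin gene Hba-a1 had 7.35 and 10.17 on the wild-type arrays and 8.72 and 10.45 on the knockout arrays, and so was higher on replicate 2 of both labels, with wild-type replicate 1 as the lowest array. It was picked after its values were seen, and the rest of its list did not follow: of the 5 erythroid markers measured, 2 were higher on knockout replicate 2 and the median difference was -0.02. Car2, carbonic anhydrase 2, had 8.51 and 7.66 on the wild-type arrays and 6.74 and 5.69 on the knockout arrays. The summed signal of the 5 was 559 and 1384 on the wild-type arrays and 559.9 and 1482 on the knockout arrays. Hba-a1 made up most of it on both replicate 2 arrays. That of 6 B cell markers was 355 and 279 against 217 and 123. Of these 6, 5 lay below the median of the named probe sets on every array. The median label difference of the 6 was -0.05, with 3 above 0 and 3 below. The part of these cells in the mitotic differences was not tested. Alas2, the haem synthesis enzyme of erythroid precursors, lay between 3.10 and 3.21 on all 4 arrays, below their medians. Gfi1 itself, by its 1 named probe set, had 10.17 and 10.08 on the wild-type arrays and 11.47 and 11.32 on those labelled as knockout, higher and not lower (limma, adjusted p = 0.00781). Whether that probe set lies in the deleted part is not given in the sources used here. The genotype is therefore taken from the labels.

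Since the members moved together, their promoters were examined for the elements known from cell cycle genes: the core of the cell cycle genes homology region (CHR), which binds MuvB complexes, and the CCAAT box, which binds NF-Y. RefSeq promoter windows (build GRCm38.p6, 250 bases before to 50 bases from the annotated start) were at hand for 39 of the 47 genes. A CHR core, searched as TTTGAA or TTCGAA on either strand, was present in 30 of the 39 (76.9%), against 21.7% of 27025 genes with a window. CCAAT on either strand was present in 29 (74.4%, against 41.1%), and both in 27 (69.2%, against 9.65%). The motifs were searched separately, and matches of both may share a base. In 28 of the 39 a CHR core lay in the last 100 bases of the window, from 50 bases before the start on, against 6.12% of all genes. The shares depended on the window: before the start alone, a CHR core was present in 16 of the 39 (41.0%, against 19.6% of all genes and 41.3% of other mitotic genes) and both motifs in 15 (38.5%, against 7.93% of all genes). These are matches of letters and not sites of binding. The genes were listed for their role in mitosis, so the shares describe that choice as much as the arrays.

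The last 150 bases of the window are shown, from 100 bases before the start, for Cenpf, with the widest knockout difference, for 5 genes of different steps that followed the common order, and for Pttg1, which did not. Each is written 5′ to 3′ on the gene's strand, with CHR cores and CCAAT boxes of either strand in capitals.
Cenpf, chr1:189688037-189688186, minus strand: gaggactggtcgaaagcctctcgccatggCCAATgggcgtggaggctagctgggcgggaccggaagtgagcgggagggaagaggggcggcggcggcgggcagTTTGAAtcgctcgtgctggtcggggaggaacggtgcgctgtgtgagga
Ccnb2, chr9:70421505-70421654, minus strand: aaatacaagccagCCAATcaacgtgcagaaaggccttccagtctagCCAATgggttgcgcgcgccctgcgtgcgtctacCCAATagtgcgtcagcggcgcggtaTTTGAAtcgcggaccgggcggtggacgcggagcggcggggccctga
Cdc20, chr4:118437294-118437443, minus strand: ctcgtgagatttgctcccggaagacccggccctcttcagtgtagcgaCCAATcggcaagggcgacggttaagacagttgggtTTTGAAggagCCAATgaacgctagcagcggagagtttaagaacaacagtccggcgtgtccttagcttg
Plk1, chr7:122159335-122159484, plus strand: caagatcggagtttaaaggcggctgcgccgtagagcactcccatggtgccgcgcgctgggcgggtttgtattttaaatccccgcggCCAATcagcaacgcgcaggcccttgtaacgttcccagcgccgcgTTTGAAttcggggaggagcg
Hmmr, chr11:40733388-40733537, minus strand: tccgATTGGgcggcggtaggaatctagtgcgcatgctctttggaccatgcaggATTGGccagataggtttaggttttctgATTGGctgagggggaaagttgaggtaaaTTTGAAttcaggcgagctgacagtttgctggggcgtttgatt
Ube2c, chr2:164769829-164769978, plus strand: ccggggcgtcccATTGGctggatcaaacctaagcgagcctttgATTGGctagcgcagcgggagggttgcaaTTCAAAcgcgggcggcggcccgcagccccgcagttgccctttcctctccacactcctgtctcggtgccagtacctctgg
Pttg1, chr11:43425932-43426081, minus strand: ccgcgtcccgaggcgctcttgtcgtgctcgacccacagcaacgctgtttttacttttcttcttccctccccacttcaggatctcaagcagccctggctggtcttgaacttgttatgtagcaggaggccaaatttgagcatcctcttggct

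In this stretch a CHR core follows 3 CCAAT boxes in Ccnb2 and Hmmr, 2 in Ube2c and 1 in Cenpf and Plk1. Cdc20 has 2 CCAAT boxes with the CHR core between them. Pttg1 has neither motif in the whole window, and neither do Birc5, Mad2l1, Melk, Ncaph and Nusap1, which all followed the common order. The 27 measured genes with both motifs had a median knockout difference of 2.36 and a range of 1.36 to 3.18. The 4 measured genes with only 1 motif, Anln, Cenpe, Kif2c and Ndc80, had a median of 2.51 and a range of 2.06 to 3.10. The 6 measured genes with neither had a median of 1.84 and a range of -0.14 to 2.41. The ranges overlapped, and the median was highest with 1 motif. Smc4, the other gene with a small difference, has no window in the table. Of the other lists, a CHR core was present in 38 of 63 other mitotic genes (60.3%) and in 6 of 36 S phase genes (16.7%). It was present in 2 of 16 genes of the anaphase-promoting complex and of cohesin and its regulators (12.5%). CCAAT was less uneven, at 66.7%, 61.1% and 50% of the same lists.

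**Figure D5:**
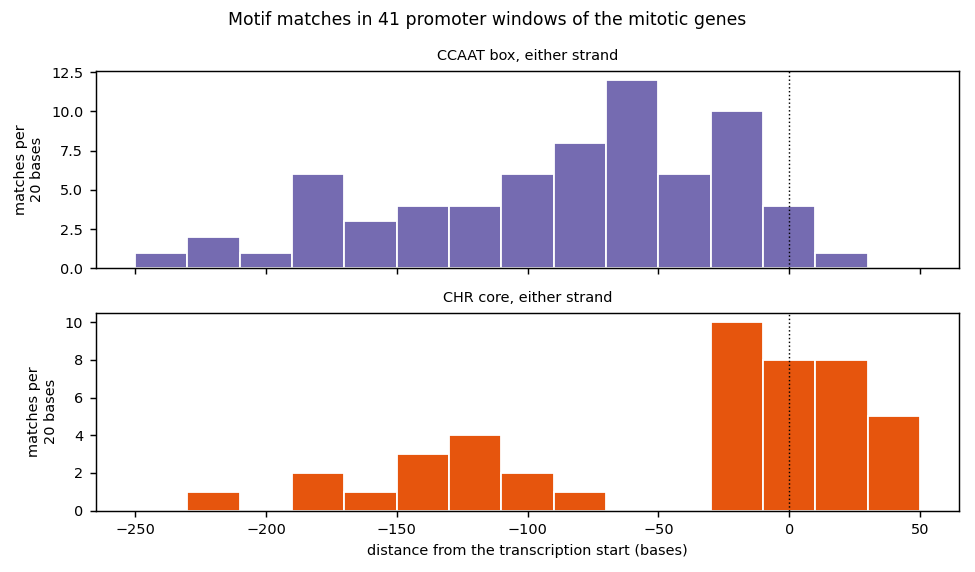
Position of CCAAT boxes (top) and CHR cores (bottom), either strand, in 41 promoter windows of 39 mitotic genes, as matches per 20 bases against the distance from the annotated transcription start (dotted line). Most CHR cores lie close to the start on either side of it, and most CCAAT boxes lie upstream, within 100 bases before it.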

How the data were processed

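The submitters' processing notes list RMA and, as software, Affymetrix Expression Console 1.1, without saying which settings the authors used. The range of the deposited numbers (2.19 to 13.5) and their nearly equal array medians (3.53 to 3.55) are those of log2 signals, the unit assumed for the deposited values here. They were not normalized again. Array signals give no read depth, so the number of arrays limits the precision. Of 45037 probe sets, 28898 had 1 gene name in the platform annotation, 551 had several and 15588 had none listed.

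The labels were compared over all 17097 genes with lmFit and eBayes of limma 3.58.1 (R 4.3.3, intensity trend, no covariate, no filter), with Benjamini-Hochberg adjustment at 0.05, two-sided. The fit was run on simulated data with planted log2 changes of 2 in size and variances drawn from the fit over all genes. That run does not show whether the smaller label differences of the more variable members would be found. Differences between arrays of 1 label, gene lists and motif shares are descriptions. The members, lists and tests were chosen with earlier results of these data known. Genes were named by a rule: called genes, the brightest and most different member of each role, the extremes over all members, those with another array order, and in other lists the called genes or the 2 largest differences. Remaining members, and uncalled marker genes or others where stated, were named after their values were seen. Figures were drawn with matplotlib 3.10.9.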

Additional observations from a re-analysis of the deposited data

How the results depend on the processing

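No member was called under any of the 9 settings that keep all 4 arrays (dropping the dimmest 30% or 50% of genes, centring or quantile-normalizing the arrays, averaging all probe sets, fitting without the trend, with a robust prior, with ordinary t statistics or with the replicate number as a block). Of all genes, 0.807% to 2.64% were called in 8 of these settings. Ordinary t statistics called 0 of all genes, so that setting could not have called a member. The median label difference stayed between -0.13 and -0.09 in them. Leaving out 1 array gave 0 to 25 called members and medians of -1.25 to 0.99. Some label differences changed sign without a call: on centred arrays Nusap1 was at 0.0047 and Pttg1 at 0.0100, after quantile normalization Pttg1 was at 0.0019, and by the mean of all probe sets Cenpa was at 0.0023, Nusap1 at 0.075 and Racgap1 at -0.13. Kif22 also changed sign on centred arrays, and Top2a by the mean of all probe sets. Leaving out 1 array gave these ranges: Anln -1.34 to 1.17, Aurka -1.80 to 0.83, Aurkb -1.16 to 0.97, Birc5 -1.09 to 0.91, Bub1 -1.34 to 1.17, Ccna2 -1.47 to 0.83, Ccnf -1.65 to 1.01, Cdc20 -1.25 to 0.65, Cdc25b -0.71 to 0.65, Cdca8 -1.23 to 0.86, Cenpa -0.90 to 0.47, Cenpe -1.74 to 1.37, Cenpf -1.52 to 1.66, Ect2 -1.25 to 0.75, Espl1 -1.31 to 1.33, Foxm1 -0.50 to 1.1, Kif23 -1.71 to 0.41, Kif4 -1.94 to 1.03, Mad2l1 -1.26 to 0.41, Ncapg -1.46 to 1.12, Nusap1 -1.02 to 0.99, Plk1 -1.51 to 1.24, Pttg1 -0.079 to 0.058, Racgap1 -0.80 to 1.09, Smc4 -0.46 to 0.048, Tpx2 -1.85 to 1.28. At a 1.5-fold limit 41 members, in place of 15, were past it between the wild-type arrays. Of all genes 3.05% were, in place of 0.667%. Before the start alone, 16 of 39 genes had a CHR core (41.0%, against 19.6% of all genes) and 15 both motifs (38.5%, against 7.93%). The common order held for 42 or 43 members under each scaling, filter and probe set choice, an alternative added after seeing the data.

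With the replicate number as a block, the count of called members was 0 and the median SE was 0.34 against 0.68 without it. The count of members at an unadjusted p under 0.05 went from 0 to 1 (Kif23; limma, adjusted p = 0.504), so the block changed no call. Same-numbered arrays deviated together (r = 0.30 over all genes), but 2 pairs cannot show that the numbers pair the samples.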
